A study of Homo sapiens with 6 samples.

Results

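EBF1, EBF2 and EBF3 were described by the histone peaks called around them. Each gene was given an hg19 window, chromosome 5 at 158113000 to 158537000 for EBF1, chromosome 8 at 25689000 to 25913000 for EBF2 and chromosome 10 at 131623000 to 131772000 for EBF3, and every peak that overlapped a window was taken. This gave 145 of the 142800 peaks in 4 lists, with 22 H3K4me3 and 35 H3K27me3 peaks from Boost-Chir cultures and 28 and 60 from Low-Chir cultures. The genes were chosen by the covered length, number and top enrichment of these same peaks, so their differences between the conditions are given as a description and carry no test. The windows are 20.0, 20.3 and 20.0 kb longer than the RefSeq genes of these names, which fits about 10 kb of flank on either side. The RefSeq promoter table has EBF1 and EBF3 on the minus strand, and EBF2 is known to be read from that strand too. The 5′ ends of the genes therefore lie toward the upper end of each window, and distances are given from that end.

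The cells were neural progenitors grown from H9 (WA-09), a widely used human embryonic stem cell line, and taken on day 11 of differentiation toward midbrain dopamine neurons. Boost-Chir cultures received 7.5 µM of CHIR99021, a GSK3 inhibitor that activates WNT signalling, from day 4 until day 10. Low-Chir cultures belong to the same series, in which CHIR99021 started at 0.7 µM, and the labels do not state their concentration over those days. All cultures had 0.7 µM of the compound at the start, with SHH, LDN, SB431542 and a Rock inhibitor, and medium with 3 µM of it from day 10. There was 1 library for each mark and condition, so differences lack a replicate check. The cultures were profiled in bulk, so fewer cells with a mark and less of it per cell cannot be told apart. The lists hold no RNA, and the labelled cell type was not checked against markers.

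EBF proteins, also called COE or Olf/EBF factors, are transcription factors with a DNA-binding domain of their own family and a helix-loop-helix region through which they pair. EBF1 is best known for setting B-lymphocyte fate and, in the mouse and chick nervous system, for neuronal differentiation. EBF2 acts in neuronal migration in the mouse and in brown fat cells. EBF3 acts in neuronal differentiation, and mutations of the human gene cause a neurodevelopmental syndrome. H3K4me3 marks active and poised promoters, whereas H3K27me3 is laid down by Polycomb complexes over silent developmental genes. Promoters rich in CG pairs are the usual sites of both marks.

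The promoter sequences are shown because their CG content differed widely between family members. They are the 250 bases before the transcript start in RefSeq, on build GRCh38.p14, minus strand, written 5′ to 3′ with each CG pair in capitals. Their positions on that build cannot be set against the hg19 peaks.
EBF1, chr5:159097957-159098206: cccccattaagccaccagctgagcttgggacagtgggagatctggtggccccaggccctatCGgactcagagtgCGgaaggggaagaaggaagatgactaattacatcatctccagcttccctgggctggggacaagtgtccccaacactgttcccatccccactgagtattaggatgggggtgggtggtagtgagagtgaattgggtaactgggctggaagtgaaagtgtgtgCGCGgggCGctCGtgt
EBF3, chr10:129964275-129964524: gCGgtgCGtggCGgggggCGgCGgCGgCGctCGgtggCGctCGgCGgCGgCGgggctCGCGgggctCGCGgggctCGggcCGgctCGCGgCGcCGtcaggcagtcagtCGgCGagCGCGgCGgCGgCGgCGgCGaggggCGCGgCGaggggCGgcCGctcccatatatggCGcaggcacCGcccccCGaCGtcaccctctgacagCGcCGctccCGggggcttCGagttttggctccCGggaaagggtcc
The EBF3 stretch held 46 CG pairs and 81.2% G and C, and 0.330% of 35116 promoters of that length held more pairs. The EBF1 stretch held 6 CG pairs and 57.2% G and C, against a median of 11 pairs, and 58.9% of the promoters held more. The EBF1 start in that table lies 1.96 kb inside the outer end of the gene, whereas the EBF3 start lies at the outer end itself. No EBF2 sequence is shown.

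Depth was taken as the lowest background recovered from the enrichment and p-value of the peaks, since read totals were not at hand. By this measure the H3K4me3 library of Boost-Chir was 1.21 times as deep as that of Low-Chir, and the H3K27me3 library 0.971 times. Over the genome, H3K4me3 peaks covered 1.29 times as much in Boost-Chir and H3K27me3 peaks 0.901 times as much. A deeper library gives longer peaks at the same threshold, and the part of depth in the lengths below was not tested.

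EBF2 had the greatest difference in H3K27me3 of the 3 genes. Its window held 12 H3K27me3 peaks over 16.2 kb in Boost-Chir and 38 peaks over 37.4 kb in Low-Chir, a difference of -21.2 kb and a ratio of 0.433. EBF1 and EBF3 had nearly equal lengths of the mark in both conditions. EBF1 carried 13 peaks over 13.6 kb in Boost-Chir and 15 peaks over 13.9 kb in Low-Chir, a ratio of 0.974. EBF3 carried 10 peaks over 14.6 kb in Boost-Chir and 7 peaks over 13.2 kb in Low-Chir, a ratio of 1.10.

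**Figure D1:**
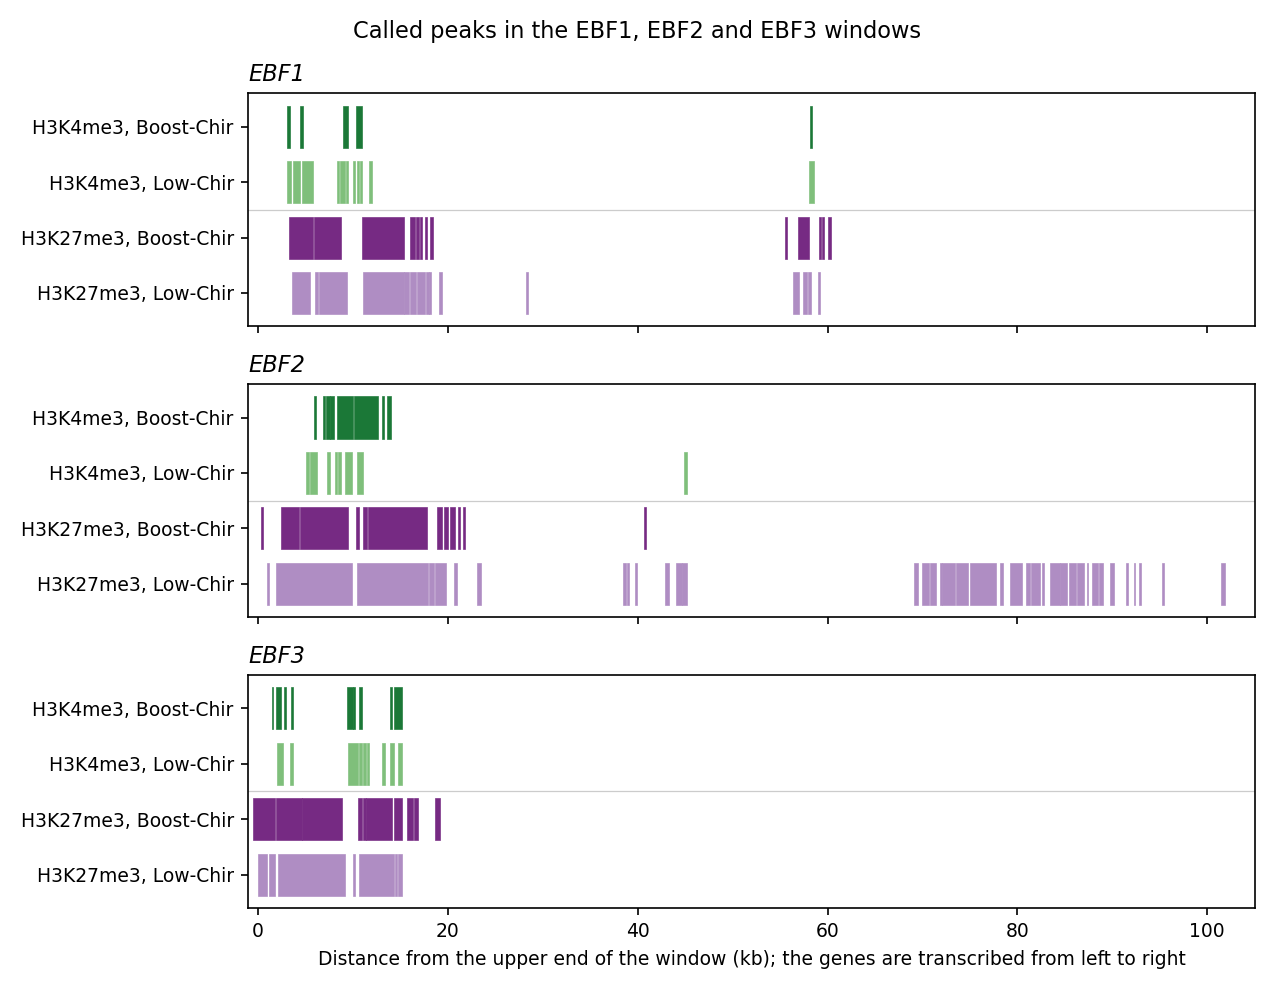
Position of every peak in the 3 windows, as distance in kb from the upper window end, with H3K4me3 above H3K27me3 and Boost-Chir above Low-Chir for each mark. The stretch between 69.1 and 95.5 kb in EBF2 holds Low-Chir H3K27me3 peaks and 0 peaks of Boost-Chir, whereas the blocks within 25 kb appear in both conditions at all 3 genes. No window holds a peak beyond the range drawn.

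**Figure D2:**
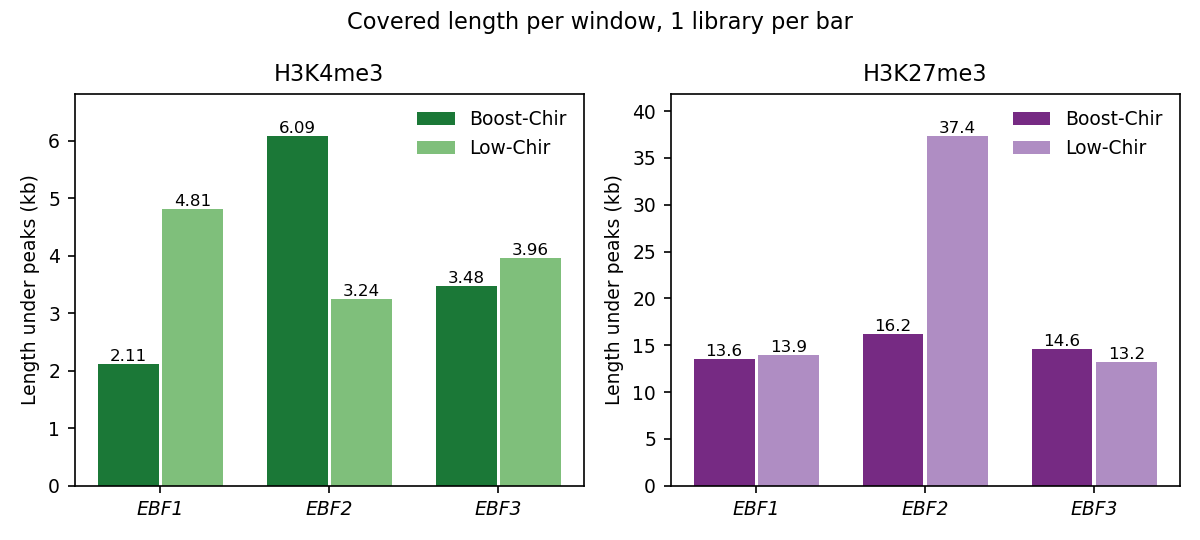
Length under peaks in kb for each gene, mark and condition, 1 library per bar. EBF2 stands at 16.2 kb of H3K27me3 in Boost-Chir and 37.4 kb in Low-Chir, and at 6.09 kb of H3K4me3 in Boost-Chir against 3.24 kb in Low-Chir, while EBF1 has 2.11 kb of H3K4me3 in Boost-Chir and 4.81 kb in Low-Chir.

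Most of the difference at EBF2 lay deep inside the window rather than at its upper end. A distance of 25 kb, chosen after the positions were seen, separates the block at the upper end from the rest. Within 25 kb, H3K27me3 covered 16.0 kb in Boost-Chir and 18.2 kb in Low-Chir. Beyond it, 1 Boost-Chir peak of 221 bp stood against 31 Low-Chir peaks with 19.2 kb. That Boost-Chir peak had a fold enrichment, the authors' ratio of a summit to its local background, of 2.74. Its −log10 q was 1.37, the q-value being the authors' adjusted p-value, and this was close to the lowest in that list. The 31 Low-Chir peaks had fold enrichments of 2.74 to 7.13, with a median of 4.20, which is close to the median of 4.29 in their whole list. At their summits lay 15 to 31 reads, with a median of 22. The lowest values in the Boost-Chir list were 11 reads and an enrichment of 2.02, which need not belong to the same peak. At places without a peak the lists give no Boost-Chir reads. The part of the calling threshold in the missing Boost-Chir peaks was therefore not tested. None of the 31 was overlapped by a Boost-Chir peak.

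The distal H3K27me3 of EBF2 fell into a pair of domains when peaks of both conditions within 3 kb were joined into loci. The larger one lay on chromosome 8 at 25817547 to 25843924 and held 0 kb in Boost-Chir and 16.6 kb under 24 peaks in Low-Chir. Its highest Low-Chir enrichment was 7.13-fold, and it held no H3K4me3 peak in either condition. The smaller one lay at 25867855 to 25874491 and held 0.221 kb in Boost-Chir and 2.20 kb in Low-Chir, with a highest enrichment of 2.74-fold in Boost-Chir and 5.71-fold in Low-Chir. Its far end also carried the top H3K4me3 peak of the Low-Chir window, at 25867840 to 25868095, with 6.23-fold enrichment and 19 reads at the summit. Of the 256 bp of that peak, 241 bp lay under H3K27me3, and Boost-Chir had no peak of either mark there. A single Low-Chir H3K27me3 peak of 419 bp lay still deeper, at 25811111 to 25811529.

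The upper block of EBF2 lay under strong H3K27me3 in both conditions. Its top Boost-Chir peak was 6283 bp long, at 25895142 to 25901424, with 9.28-fold enrichment, and 0.499% of the peaks in that list had a higher value. The top Low-Chir peak was 8037 bp long, at 25903092 to 25911128, with 10.4-fold enrichment, and 0.264% of its list stood higher. The reads over background, divided by depth, at these top peaks were 12.1 in Boost-Chir and 12.8 in Low-Chir, a ratio of 0.945. The Boost-Chir peak overlapped a Low-Chir peak of 7473 bp, at 25895089 to 25902561, where this value was 12.002. Over all 8 overlapping pairs the median ratio was 0.694, with 7 lower in Boost-Chir, against a median of 0.897 over the genome. Those pairs rest on 4 Low-Chir peaks, and short Boost-Chir peaks are set there against the summit of a long Low-Chir peak, which lowers the ratio.

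With all peaks counted, EBF2 was also the only window of the 3 with more H3K4me3 in Boost-Chir, which at EBF3 turned with the rule for peaks. The mark covered 6.09 kb under 8 peaks in Boost-Chir and 3.24 kb under 8 peaks in Low-Chir. The longest Boost-Chir peaks ran for 2561 bp, at 25900351 to 25902911, and for 1655 bp, at 25903030 to 25904684. The longest Low-Chir peak had 740 bp, at 25903081 to 25903820. At these wide Boost-Chir peaks the fold enrichment was 4.06, and their Low-Chir partners had 3.89 to 5.92. The reads over background, divided by depth, were 7.33 at each wide Boost-Chir peak and 4.37 to 7.14 at the Low-Chir partners, so the order depended on the measure. The highest enrichment in the window was 4.31-fold in Boost-Chir, at 25906858 to 25907121, and 6.23-fold in Low-Chir, at the distal peak described above. Among 6 overlapping pairs, these reads were higher in Boost-Chir in 4, with a median ratio of 1.10, where the genome had 1.15. The 4 higher pairs rest on the wide Boost-Chir peaks, with the 1655 bp peak in more than 1 of them. The summit of a long Boost-Chir peak is set there against short Low-Chir peaks, which raises the ratio. With a −log10 q of at least 5 the lengths were 4.48 kb in Boost-Chir and 3.04 kb in Low-Chir.

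EBF1 differed in H3K4me3 rather than H3K27me3. H3K4me3 covered 2.11 kb under 5 peaks in Boost-Chir and 4.81 kb under 11 peaks in Low-Chir, a ratio of 0.439 where the genome had 1.29. The top Boost-Chir peak lay 10.7 kb from the upper end, at 158526045 to 158526671, with 4.61-fold enrichment and 17 reads. The top Low-Chir peak lay 3.25 kb from the upper end, at 158533545 to 158533948, with 7.42-fold enrichment and 24 reads. At that place the Boost-Chir peak had 2.81-fold enrichment, with 17 reads over a background of 5.41, against a background of 2.37 in Low-Chir. The reads over background, divided by depth, gave a ratio of 0.443 there, the lowest of 8 overlapping pairs. Over these pairs the median ratio was 0.933 and the highest 1.31, with 6 lower in Boost-Chir, where the genome had a median of 1.15. Some Boost-Chir peaks enter more than 1 of the pairs. A Low-Chir peak of 1091 bp at 158531227 to 158532317 met a Boost-Chir peak of 384 bp at 158532206 to 158532589. All 5 Boost-Chir peaks overlapped a Low-Chir peak, so the Boost-Chir list added no new site, while 3 of the 11 Low-Chir peaks had no partner. Peaks without a partner made up 40.4% of the whole Boost-Chir H3K4me3 list and 16.4% of the Low-Chir list. With the top 50% of each list by −log10 q, EBF1 had 1.14 kb in Boost-Chir and 1.495 kb in Low-Chir, each list having its own limit.

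The H3K27me3 of EBF1 lay in nearly the same place in both conditions. The top peak had 4402 bp at 158521646 to 158526047 in Boost-Chir, with 7.65-fold enrichment, and 4287 bp at 158521659 to 158525945 in Low-Chir, with 8.55-fold enrichment. Both had 35 reads at the summit. Of the 14 overlapping pairs, 7 were higher in Boost-Chir and 7 in Low-Chir by reads over background divided by depth, with a median ratio of 0.973. The genome had a median of 0.897, and some peaks enter more than 1 of the pairs. A small distal site with peaks of both marks lay between 55.5 and 60.3 kb from the upper end. In Low-Chir 286 bp of its H3K4me3 peak lay under H3K27me3, while in Boost-Chir the peaks of the marks did not overlap there. There H3K27me3 covered 2.30 kb in Boost-Chir and 1.58 kb in Low-Chir. H3K4me3 covered 0.281 kb in Boost-Chir and 0.615 kb in Low-Chir. The H3K4me3 peak at this site had 2.87-fold enrichment in Boost-Chir and 5.21-fold in Low-Chir.

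EBF3 had the smallest difference in H3K4me3 length of the 3 genes with all peaks counted, while in H3K27me3 length EBF1 differed less. All EBF3 peaks lay within 19.2 kb of the upper end. H3K4me3 covered 3.48 kb under 9 peaks in Boost-Chir and 3.96 kb under 9 peaks in Low-Chir, a ratio of 0.879. With the top 50% of each list by −log10 q the order turned, at 2.295 kb in Boost-Chir and 1.71 kb in Low-Chir. The top Boost-Chir peak, at 131769537 to 131770138, had 6.81-fold enrichment and 24 reads. Its Low-Chir partner had 4.74-fold enrichment. The top Low-Chir peak, at 131761469 to 131762553, had 5.44-fold enrichment and 18 reads, and overlapped a Boost-Chir peak of 6.08-fold enrichment. Over all 7 overlapping H3K4me3 pairs, the reads over background, divided by depth, were lower in Boost-Chir in 4, with a median ratio of 0.810. The top Low-Chir peak enters more than 1 of them, and the genome had a median of 1.15. H3K27me3 reached 7.86-fold in Boost-Chir, at 131763172 to 131767305, and 6.76-fold in Low-Chir, at 131770236 to 131770881, a different place. The top Boost-Chir peak overlapped a Low-Chir peak of 7059 bp, at 131762838 to 131769896, with 4.15-fold enrichment. That Low-Chir peak had 40 reads over a background of 8.80, against 36 over 3.68 in Boost-Chir. The reads over background, divided by depth, were 10.7 in Boost-Chir and 9.99 in Low-Chir. Over 10 overlapping H3K27me3 pairs, 5 were higher in Boost-Chir by these reads and 5 in Low-Chir, with a median ratio of 0.991. The genome had a median of 0.897. Some peaks enter more than 1 of these pairs, with long peaks set against short ones. A Boost-Chir H3K27me3 peak crossed the upper window end, and no Low-Chir peak did. Within 10 kb beyond that end lay 2 more H3K27me3 peaks of each condition, with 1831 bp in Boost-Chir and 1331 bp in Low-Chir. EBF1 and EBF2 had no peak of any list within 10 kb outside their windows.

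**Figure D3:**
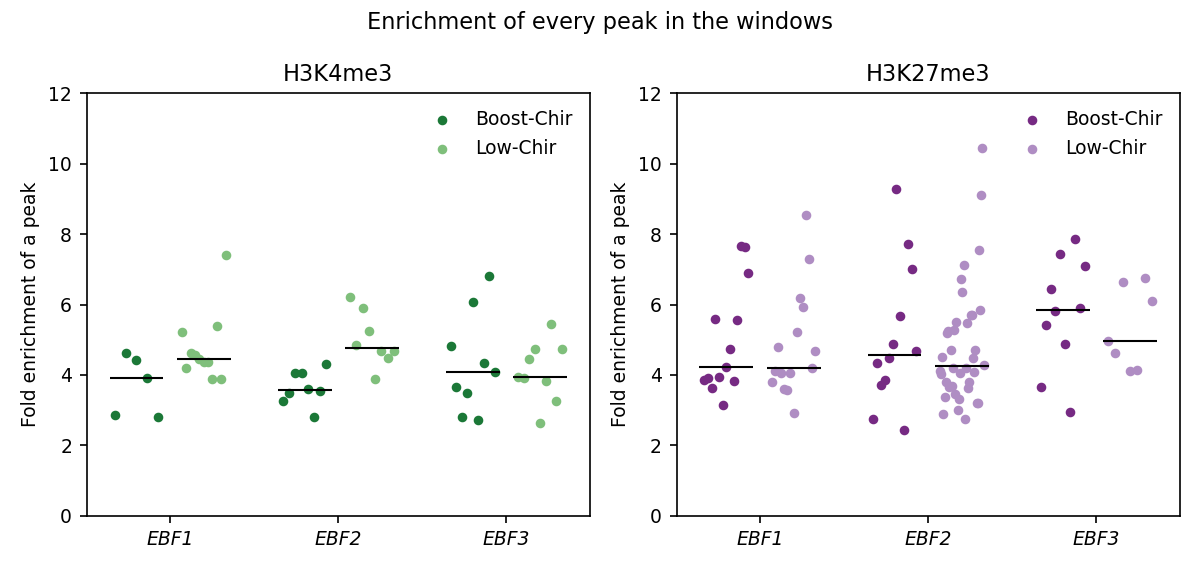
Authors' fold enrichment of every peak in the windows, for H3K4me3 and H3K27me3, with a black line at the median of each set. The H3K4me3 peaks of the 3 genes lie between 2.63 and 7.42, and the H3K27me3 peaks reach 9.28 in Boost-Chir and 10.4 in Low-Chir, both at EBF2.

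About 10 kb inside the upper end, where the windows put the 5′ ends, H3K27me3 was interrupted by a gap of at least 500 bp in both conditions at all 3 genes. The gap nearest that position was taken in each list, a rule set after the positions were seen, and it rests on the same peaks that chose the genes. The gap spanned 2218 bp in Boost-Chir and 1659 bp in Low-Chir at EBF1. At EBF2 it spanned 882 bp in Boost-Chir against 530 bp in Low-Chir, and at EBF3 1749 bp in Boost-Chir and 821 bp in Low-Chir. The gap was longer in Boost-Chir at each gene, and the Low-Chir gap of EBF2 was close to the limit. Some gap edges were weak peaks. The Low-Chir gap of EBF3 ended at a 250 bp peak with a −log10 q of 4.42. The Boost-Chir gap of EBF2 ended at a 285 bp peak with 1.66. Gap lengths over the genome were not compared, and H3K27me3 covered 0.901 times as much there in Boost-Chir. H3K4me3 peaks covered 86.6% of the EBF2 gap in Boost-Chir and 2.08% in Low-Chir. They covered 51.3% of the EBF1 gap in Boost-Chir against 45.4% in Low-Chir. Of the EBF3 gap they covered 46.1% in Boost-Chir and 65.4% in Low-Chir. Such gaps were not limited to this place. Within 25 kb of the upper end, EBF1 had 2 gaps of that length in Boost-Chir and 3 in Low-Chir. EBF2 had 3 in Boost-Chir, the longest of 1907 bp, against 4 in Low-Chir, the longest of 2091 bp, and EBF3 had 2 in Boost-Chir and 1 in Low-Chir. Of these gaps, H3K4me3 lay in the ones near 10 kb and in a further EBF1 gap of 544 bp in Low-Chir, at 158530934 to 158531477, and in none of the others.

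Most of the H3K4me3 length also lay under H3K27me3, except at EBF1 in Boost-Chir. At EBF2 the marks shared 4.82 kb in Boost-Chir, or 79.2% of the H3K4me3 length, and 3.215 kb in Low-Chir, or 99.2%. At EBF3 they shared 2.66 kb in Boost-Chir, or 76.4%, and 3.00 kb in Low-Chir, or 75.8%. At EBF1 the shared part was 0.464 kb in Boost-Chir, or 22.0%, and 3.07 kb in Low-Chir, or 63.9%. Over the genome 5.15% of the H3K4me3 length in Boost-Chir and 6.65% in Low-Chir lay under H3K27me3. Peaks of both marks at a place do not show that they sit on the same chromosomes, since a culture can hold cells of either state.

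Loci joined within 3 kb set these lengths against the rest of the genome. A locus was counted when at least 2 kb lay under peaks in either condition, and it was called at a 2-fold difference in covered length. For H3K27me3, 2 of the 6 such loci in the windows were shorter in Boost-Chir, both at EBF2, where 14.0% of 2715 loci were, and 0 were longer, where 7.18% were. The smaller of these EBF2 loci, with 2.20 kb in Low-Chir, was just past the minimum of 2 kb, and a join of 1 kb would split it. For H3K4me3, 1 of 3 loci was longer in Boost-Chir, where 5.63% of 10392 loci were, and 1 was shorter, where 0.529% were. The longer one was the EBF2 locus at 25899012 to 25907904, with 6.09 kb in Boost-Chir and 2.985 kb in Low-Chir, a ratio of 2.04 just past the limit. The shorter one was the EBF1 locus at 158525007 to 158533948, with 1.83 kb in Boost-Chir and 4.20 kb in Low-Chir. Since the genes were picked with these lengths known, nothing is read from the counts. In H3K27me3, 34 of the 38 Low-Chir peaks of EBF2 had no overlapping Boost-Chir peak, where 43.1% of the whole list had none. The reverse held for 4 of the 12 Boost-Chir peaks of EBF2, where 36.3% of the list had no Low-Chir peak.

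**Figure D4:**
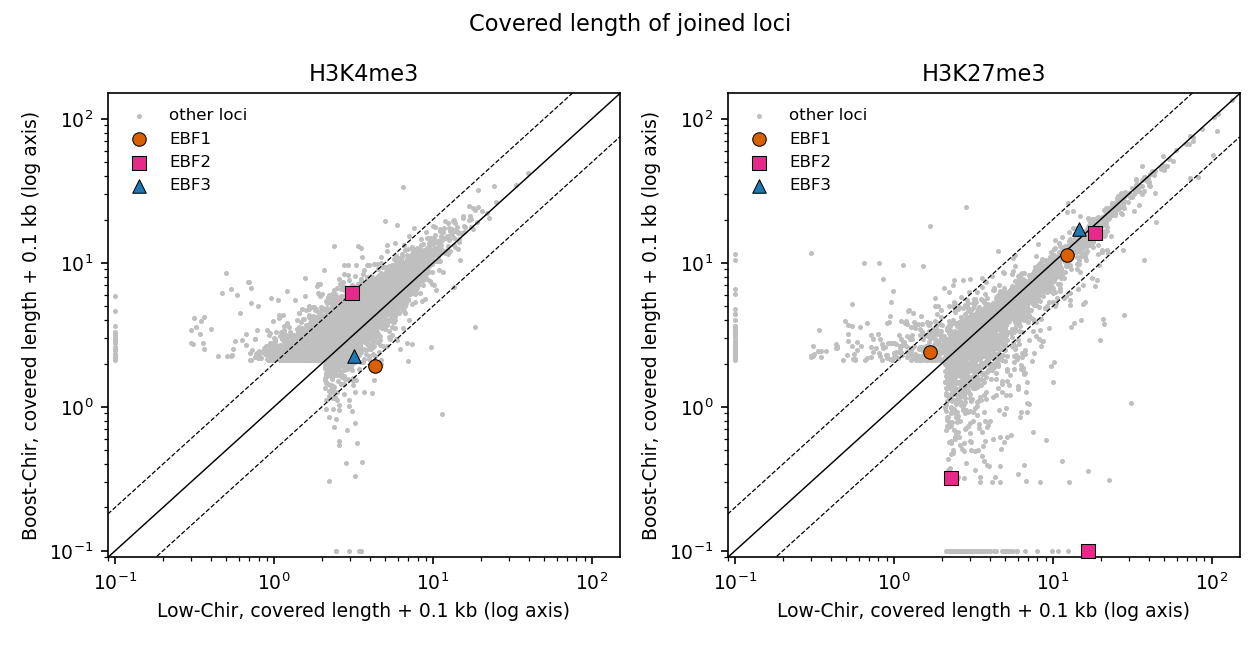
Covered length of each counted locus in Boost-Chir (vertical) and Low-Chir (horizontal), in kb plus 0.1 on log axes, with a solid line at equal length and dashed lines at 2-fold. The EBF2 H3K27me3 loci with 0 and 0.221 kb in Boost-Chir lie far below the lines, the EBF1 H3K4me3 locus lies below the lower line, and the other H3K27me3 loci of the 3 genes lie within them.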

How the data were processed

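ChIP-seq peak lists of H3K4me3 and H3K27me3 were used, 1 per mark and condition. The 2 input samples were not analysed here. The submitters' processing notes list cutadapt 1.6, BWA 0.7.12, Picard and build hg19, with no settings. The peak caller is not given in the sources used here. The peak names pair each antibody library with the input of its own condition, and replicates were not pooled. The deposited fold enrichment is a ratio over local background, and the deposited −log10 p and −log10 q are the authors' values. The deposited score was not used.

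Lengths under peaks were cut at the window edges, and partners overlap by at least 1 bp. Reads at the summit and background were solved from fold and p, taking fold as reads plus 1 over background plus 1 and p as a Poisson tail. For H3K27me3, reads and background entered scaled by 0.977 in Boost-Chir and 0.909 in Low-Chir, steps found from the values. The −log10 p came back within 0.001 at 100% of peaks. This is no check of the reads or background, since the background was solved from that same p. The lowest background served as depth. The code was tested on simulated data. Python 3.11.15, numpy 2.4.6, scipy 1.17.1, pandas 2.3.3 and matplotlib 3.10.9 were used. The text names the peak with the highest enrichment per window, mark and condition and the longest joined loci. Genes and lists were chosen with earlier results of these data known. With 1 library per group no p-value was computed.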

Additional observations from a re-analysis of the deposited data

How the results depend on the processing

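No paired analysis was possible because there is only 1 library for each mark in a condition. Each value below is Boost-Chir minus Low-Chir in kb, and the cause of each shift was not tested beyond the peaks or window left in. The EBF2 H3K27me3 difference lay between -21.7 and -15.7 kb in the 6 alternatives tried. Of these, adding 10 kb at each end and counting peaks at the window edge in full could not change it. With the top 50% of each list by −log10 q, H3K4me3 differed by -0.354 at EBF1 and by 0.582 at EBF3, turned from -0.481, and H3K27me3 by -0.070 at EBF1 and 0.762 at EBF3. With a −log10 q of at least 5, H3K4me3 differed by -1.264 at EBF1, 1.44 at EBF2 and 0.026 at EBF3, again turned, and H3K27me3 by -0.070 at EBF1 and 0.762 at EBF3. Without 10 kb at each window end, H3K4me3 differed by -0.649 at EBF1 and -0.954 at EBF3, and H3K27me3 by -0.586 at EBF1. With 10 kb more at each end, H3K27me3 at EBF3 differed by 2.44. With the same number of peaks per list, H3K4me3 at EBF3 differed by -0.755. Of H3K4me3 loci, 920 were at least 2-fold longer with the top 50% of each list, against 585. In the other 37 of 52 comparisons the value kept its direction within 1.5 times. Some of these could not change, since no peak lay across the edges of the EBF1 and EBF2 windows or within 10 kb outside them. The same held for H3K4me3 at EBF3. Lengths of peaks near the calling threshold depend on depth.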
